A study of Mus musculus with 12 samples.

Results

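The 10 genes described here encode the enzymes and the carrier that lead from cytosolic citrate to long and unsaturated fatty acids: Acly, Slc25a1, Acss2, Me1, Acaca, Acacb, Fasn, Elovl6, Elovl5 and Scd1. They were chosen by symbol, by a rule that holds no measured value but was written with earlier results of these data known, and all 10 matched 1 row each among the 55487 genes of the count table. All 10 also passed the filter on low counts in liver and in brain.

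RNA was measured in the liver and brain of 6 mice, which gave 12 libraries in 4 groups of 3. KO mice (A, C and F) lack Mettl5, the methyltransferase that places an m6A mark on 18S rRNA. Their allele came from a conditional line with loxP sites around exon 2, deleted in the whole body with a CMV-cre transgene, so that the frame is shifted. The line was made in ES cells of a C57bl/6 x 129S6 hybrid and was backcrossed to B6. Control mice (B, D and E) are labelled WT. The study, however, presents its liver and brain RNA-seq as knockout against heterozygous mice, and only a supplementary caption names a wild-type mouse. WT thus stands here for the label, and the controls may be heterozygous. KO and control mice were sequenced in pairs according to the study. Since no label ties a KO mouse to its control, genotypes were compared without pairing. The labels name no treatment and give neither age nor sex, and the study as a whole used both sexes from 4 weeks to 6 months of age.

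In a lipogenic cell, citrate made in mitochondria is carried to the cytosol and cleaved to acetyl-CoA, which is carboxylated to malonyl-CoA and condensed by fatty acid synthase, with NADPH as the reductant. The product, palmitate, is lengthened and desaturated at the endoplasmic reticulum. In liver this pathway is switched on by feeding and insulin through SREBP1c and ChREBP and is lowered in fasting, whereas in brain it serves membranes and myelin.

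Totals ran from 16145754 to 21623180 counts per library in liver and from 14403309 to 18365114 in brain. Values below are CPM, the counts brought to a common library size, after TMM scaling within a tissue, a correction for differences in RNA composition between libraries. Hepatocyte markers summed to between 65963 and 84295 CPM in WT liver and between 76507 and 83766 in KO liver, and neuron markers to between 2509 and 3116 CPM in WT brain and between 2661 and 2768 in KO brain. Mice E (WT) and F (KO) had at most 20 Y-linked counts in a library and the other 4 mice at least 2112. Xist, which is expressed in females, drew at least 9446 counts per library in E and F and at most 19 in the others. Either genotype thus included 1 mouse with few Y-linked counts and high Xist. Mettl5 stood at 14.9, 8.13 and 8.35 CPM in the WT livers of mice B, D and E, and at 3.85, 3.64 and 4.07 CPM in the KO livers of mice A, C and F. Its KO libraries were below its WT libraries in brain too, where the highest KO value was 3.96 CPM and the lowest WT value 5.02 CPM. The liver log2 fold change of Mettl5 was -1.44 (SE 0.27, edgeR adjusted p = 0.383, DESeq2 adjusted p = 0.00189). The counts cover all exons of Mettl5, so transcripts that lack exon 2 are still counted.

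The genes lie on 7 chromosomes of mm10, and 3 of them share chromosome 11. These are Acly (ENSMUSG00000020917.17, chr11:100476353-100528000, minus strand), Fasn (ENSMUSG00000025153.9, chr11:120805846-120824547, minus strand) and Acaca (ENSMUSG00000020532.18, chr11:84129672-84401651, plus strand). Chromosome 9 holds Elovl5 (ENSMUSG00000032349.13, chr9:77917364-77984519, plus strand) and Me1 (ENSMUSG00000032418.15, chr9:86581371-86695953, minus strand). The others are Acacb (ENSMUSG00000042010.16, chr5:114146535-114250761, plus strand), Elovl6 (ENSMUSG00000041220.10, chr3:129532355-129638495, plus strand), Scd1 (ENSMUSG00000037071.3, chr19:44394455-44407879, minus strand), Acss2 (ENSMUSG00000027605.18, chr2:155517948-155585724, plus strand) and Slc25a1 (ENSMUSG00000003528.15, chr16:17925223-17928219, minus strand). No exon of a member overlapped an exon of another gene on the same strand, and the counting was by strand.

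Near-identical copies concern 4 members. Of the windows of 100 bases (the read length) in the annotated transcripts, Acaca shared 23.7% with other genes, nearly all with Gm5182, and Me1 shared 12.3%, with Gm7049 and Gm7329. Scd1 shared 2.58%, mostly with Scd3, and Elovl6 shared 0.868%, with Gm11295. Gm5182 drew 109 counts in all 12 libraries against 25950 for Acaca, and Gm7049 drew 54 against 23875 for Me1. Reads from those stretches may be lost or split, which leaves the levels of Acaca and Me1 uncertain. The other 6 members shared none.

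The stretch before the annotated start is shown for 4 genes that span the range of liver differences described below: Elovl6 and Fasn with the largest, Acly at the head of the pathway, and Slc25a1 with a difference near 0. The sequences are RefSeq's (GRCm38.p6), written 5′ to 3′ on the gene's own strand, up to the outermost annotated exon. Capitals mark motif matches on either strand.
Elovl6, chr3:129532136-129532354, plus strand: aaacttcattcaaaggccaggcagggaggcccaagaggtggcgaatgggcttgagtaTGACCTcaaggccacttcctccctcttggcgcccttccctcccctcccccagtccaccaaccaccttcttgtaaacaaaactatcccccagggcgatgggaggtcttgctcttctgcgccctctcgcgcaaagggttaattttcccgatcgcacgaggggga
Fasn, chr11:120824548-120824797, minus strand: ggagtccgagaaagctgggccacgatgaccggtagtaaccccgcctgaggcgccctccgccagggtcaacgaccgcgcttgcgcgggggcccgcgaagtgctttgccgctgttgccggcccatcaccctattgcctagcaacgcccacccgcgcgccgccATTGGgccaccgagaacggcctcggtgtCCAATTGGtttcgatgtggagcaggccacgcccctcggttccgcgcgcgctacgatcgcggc
Acly, chr11:100528001-100528250, minus strand: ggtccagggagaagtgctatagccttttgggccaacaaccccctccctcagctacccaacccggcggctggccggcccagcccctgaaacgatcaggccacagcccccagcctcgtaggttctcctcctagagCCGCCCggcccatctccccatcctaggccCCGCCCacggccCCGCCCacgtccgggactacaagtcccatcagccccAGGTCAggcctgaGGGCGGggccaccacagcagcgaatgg
Slc25a1, chr16:17928220-17928469, minus strand: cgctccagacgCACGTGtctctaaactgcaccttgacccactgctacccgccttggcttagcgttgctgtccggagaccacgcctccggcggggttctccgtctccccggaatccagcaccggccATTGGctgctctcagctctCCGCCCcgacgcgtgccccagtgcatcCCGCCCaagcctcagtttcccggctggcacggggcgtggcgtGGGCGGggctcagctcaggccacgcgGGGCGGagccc

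Windows of 300 bases, from 250 before to 50 after the start, were found for 9 of the 10 members. The CCAAT box (CCAAT), bound by the factor NF-Y, was in the windows of 7 member genes, and 37.4% of all 32851 RefSeq windows of that length hold it. Fasn has 3 matches, starting at -90, -62 and -59 relative to the start, of which the last pair overlap. The GC box (GGGCGG), a binding motif of Sp1, was in 4 member genes against 35.7% of all windows, with 5 matches in Acss2 and 4 each in Acly, Slc25a1 and Me1. The E-box (CACGTG) was in 2 members, Elovl5 and Slc25a1, against 7.15% of all windows. The sterol regulatory element type motif TCACNCCAC was in none of the member windows and in 1.24% of all windows. The nuclear receptor half-site AGGTCA was in 3 members, Acly, Acacb and Elovl6, against 16.3% of all windows. For Acaca and Acacb the RefSeq window sits at a start inside the gene's annotated span (84195438 and 114165518), not at its upstream end. Me1 has 2 windows, and its CCAAT match lies in the one at such an internal start (86687277), its GC boxes in the other. These matches are letters in a window and carry no statement about binding.

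In liver, most steps of the pathway had lower mean levels in KO than in WT mice, while no gene passed edgeR's adjusted test. In bulk tissue, fewer cells of a type and less RNA per cell cannot be told apart. All 10 members had a negative log2 fold change, although that of Slc25a1 was close to 0 and turned positive with DESeq2 or RLE size factors, whereas 50.4% of the 14075 genes tested had one. The median of the members was -0.80 and that of all genes tested -0.0024. As a share of all counts, without TMM scaling, the 10 genes together drew 24084, 16693 and 13293 CPM in the WT livers of mice B, D and E, and 10270, 12698 and 8283 in the KO livers of mice A, C and F. Every KO liver was below every WT liver in that share, but with TMM scaling the sums overlapped, at 12839 CPM in KO C and 12807 CPM in WT E. It is carried mainly by Scd1, so single genes are given below.

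No member passed the test at an adjusted p under 0.1 with edgeR's quasi-likelihood test, and neither did any other gene (0% called, 1032 at an unadjusted p under 0.05, smallest adjusted p 0.336). At an unadjusted p under 0.05, 7 of the 10 members were lower in KO liver (Acly, Acaca, Acacb, Fasn, Elovl6, Scd1 and Me1), against 4.57% of all genes tested. For 6 of them, Scd1 excepted, all 3 KO livers were below all 3 WT livers, a pattern found in 6.44% of genes. DESeq2's Wald test called 5 members lower at an adjusted p under 0.1 (Acly, Acacb, Fasn, Elovl6 and Me1), against 0.884% of the 15159 genes to which it gave an adjusted p. The liver calls thus depend on the tool, while the fold changes of the 2 tools were close, with medians of -0.80 in both. Over all alternatives the liver adjusted p ran from 7.49e-06 to 0.985 for Acly, from 2.36e-10 to 0.985 for Fasn and from 2.02e-09 to 0.985 for Elovl6. The lowest values came from the fit without the filter on low counts, where the SE of Fasn was 0.163 against 0.301 with it.

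**Figure D1:**
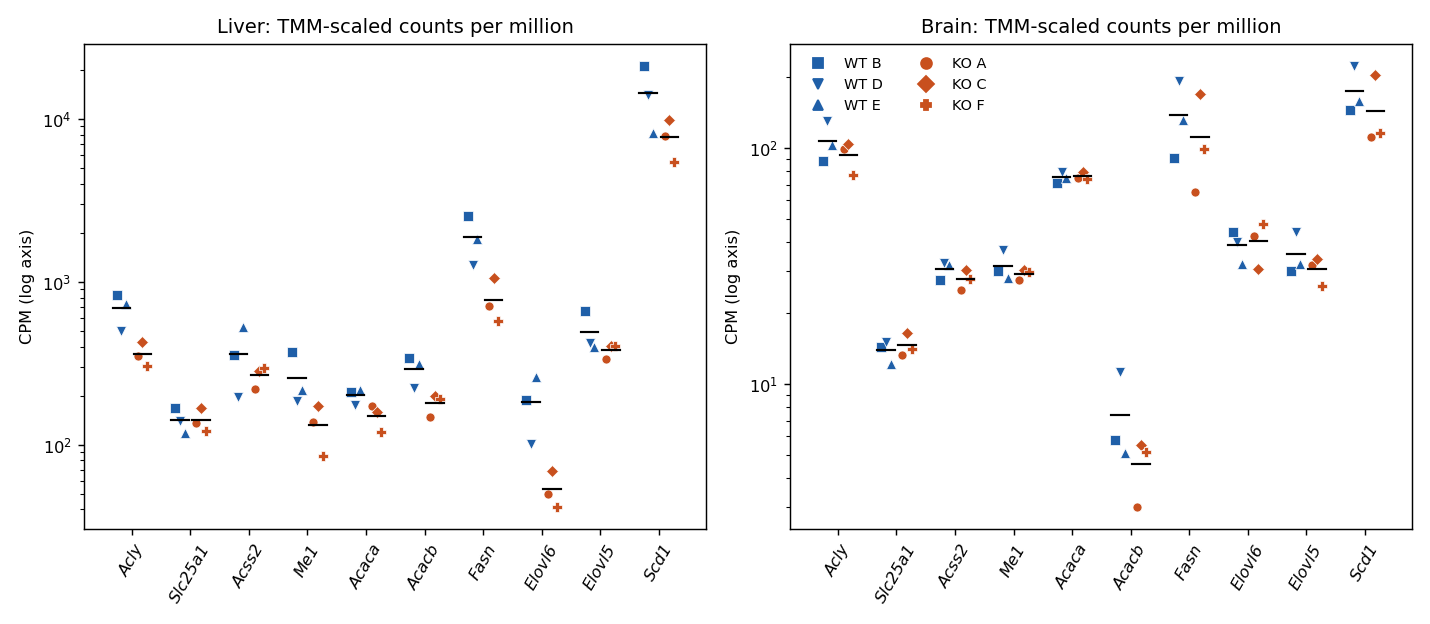
TMM-scaled CPM (log axis) of the 10 genes in each liver (left) and brain (right) library, with WT in blue, KO in orange, 1 symbol per mouse and a black line at the group mean. In liver the KO points of Acly, Me1, Acaca, Acacb, Fasn and Elovl6 all lie below the WT points, and in brain the points of every gene overlap.

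At the head of the pathway, Acly encodes ATP citrate lyase, which cleaves citrate to acetyl-CoA. It stood at 833, 496 and 732 CPM in the WT livers of mice B, D and E and at 349.9, 427 and 306 CPM in the KO livers of mice A, C and F. The groups did not overlap, and the closest pair was WT D and KO C. The log2 fold change was -0.93 (SE 0.21, edgeR adjusted p = 0.4004, n = 3), a KO level of 0.525 of WT. DESeq2 gave an adjusted p of 0.00676.

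Slc25a1 encodes the mitochondrial citrate carrier, which supplies Acly with its substrate. Its liver values were 168, 139 and 117 CPM in WT mice B, D and E and 136, 168 and 121 CPM in KO mice A, C and F. The groups covered the same range. The log2 fold change was -0.00052 (SE 0.18, adjusted p = 0.9997) with a 95% interval from -0.40 to 0.40.

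Acss2, the cytosolic enzyme that makes acetyl-CoA from acetate, stood at 353, 196 and 526 CPM in WT mice B, D and E and at 219, 285 and 295 CPM in KO mice A, C and F. WT D was the lowest of the 6 libraries and WT E the highest, so the groups overlapped. The log2 fold change was -0.43 (SE 0.33, adjusted p = 0.863), with a 95% interval from -1.20 to 0.35. It was -0.044 without WT E and -0.72 without WT D.

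Me1 encodes the cytosolic malic enzyme, a source of NADPH. It stood at 369, 185 and 217 CPM in WT mice B, D and E and at 137, 174 and 85.5 CPM in KO mice A, C and F. The groups did not overlap, but WT D and KO C lay close together. Me1 had a log2 fold change of -0.96 (SE 0.34, adjusted p = 0.575), and DESeq2 gave an adjusted p of 0.0956.

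The acetyl-CoA carboxylases make malonyl-CoA. Acaca, the cytosolic form that feeds synthesis, stood at 209, 175 and 217 CPM in WT mice B, D and E and at 174, 159 and 119.8 CPM in KO mice A, C and F. The groups did not overlap, by a margin of about 1 CPM between WT D and KO A. Acaca had a log2 fold change of -0.41 (SE 0.17, adjusted p = 0.659), and DESeq2 did not call it (adjusted p = 0.650).

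Acacb, the form at the mitochondrial surface whose malonyl-CoA restrains fatty acid import by CPT1, stood at 342, 223 and 312 CPM in WT mice B, D and E and at 148, 200.04 and 191 CPM in KO mice A, C and F. All KO values were below all WT values. Acacb had a log2 fold change of -0.70 (SE 0.19, adjusted p = 0.445), and DESeq2 gave an adjusted p of 0.0647.

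Fasn encodes fatty acid synthase, the enzyme that assembles palmitate. It stood at 2533, 1270 and 1826 CPM in WT mice B, D and E and at 709, 1049 and 571 CPM in KO mice A, C and F. The groups did not overlap, and WT B was the highest. The log2 fold change was -1.27 (SE 0.30, adjusted p = 0.428), a KO level of 0.414 of WT, and DESeq2 gave an adjusted p of 0.00165.

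Elovl6 elongates palmitate to stearate and showed the largest difference among the members. It stood at 189, 101 and 259 CPM in WT mice B, D and E and at 49.8, 68.9 and 41.3 CPM in KO mice A, C and F. The groups did not overlap, although WT libraries differed among themselves by more than the gap between WT D and KO C. The log2 fold change was -1.78 (SE 0.36, adjusted p = 0.396), a KO level of 0.291 of WT, and DESeq2 gave an adjusted p of 9.62e-06.

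Elovl5, which elongates polyunsaturated chains and palmitoleate, stood at 662, 424 and 397 CPM in WT mice B, D and E and at 337, 404 and 405 CPM in KO mice A, C and F. Only WT B stood apart from the other 5 livers. Elovl5 had a log2 fold change of -0.37 (SE 0.21, adjusted p = 0.766).

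Scd1, the stearoyl-CoA desaturase that makes oleate and palmitoleate, was by far the most abundant member. It stood at 21154, 14047 and 8204 CPM in WT mice B, D and E and at 7860, 9905 and 5455 CPM in KO mice A, C and F. WT E lay between the KO libraries, so the groups overlapped. Scd1 had a log2 fold change of -0.90 (SE 0.36, adjusted p = 0.659), and DESeq2 did not call it (adjusted p = 0.186).

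**Figure D2:**
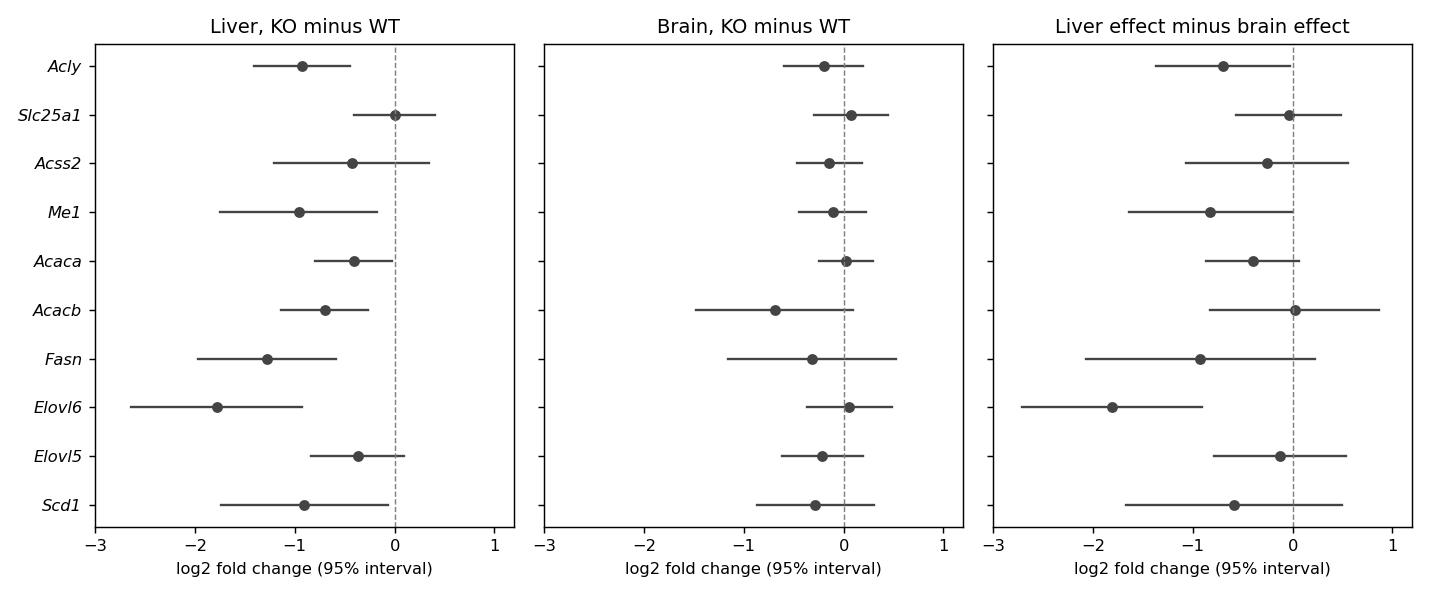
Log2 fold change of each gene (dots) with its 95% interval from edgeR (lines), KO minus WT in liver (left), in brain (middle), and the liver effect minus the brain effect (right). In liver the intervals of 7 genes lie below 0, and in brain every interval includes 0. In the difference those of Acly, Elovl6 and Me1 lie below 0, which held in every alternative fit for Elovl6 only. With mouse as a block it is lost for Acly.

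The members did not differ by the same amount in each mouse. Relative to the mean of the 6 livers, the members averaged 0.70 (log2) in WT B, 0.39 in WT E and 0.017 in WT D, and -0.10 in KO C, -0.43 in KO A and -0.59 in KO F. WT D and KO C were the closest pair of the 2 genotypes. KO F was the lowest of the 6 livers for 6 of the 10 members and below the mean for all 10. WT B was above the mean for all 10.

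Leaving out WT B reduced the median of the members to -0.55, and 4 members were then lower at an unadjusted p under 0.05 (Acly, Acacb, Fasn and Elovl6), against 3.13% of all genes. The log2 fold change without WT B was -0.61 for Me1, -0.53 for Scd1 and -0.10 for Elovl5, and that of Acaca without KO F was -0.27. Without WT D the median was -0.89 and edgeR called 87 of 14565 genes, among them 2 members, Elovl6 (log2 fold change -2.07, adjusted p = 0.0294) and Acly (-1.11, adjusted p = 0.0786). Acly, Acacb, Fasn and Elovl6 were lower at an unadjusted p under 0.05 in each of the 6 fits that left out 1 mouse. In a single such fit, 3.13% to 5.31% of all genes were, and the share of genes that were so in all 6 was not computed.

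**Figure D3:**
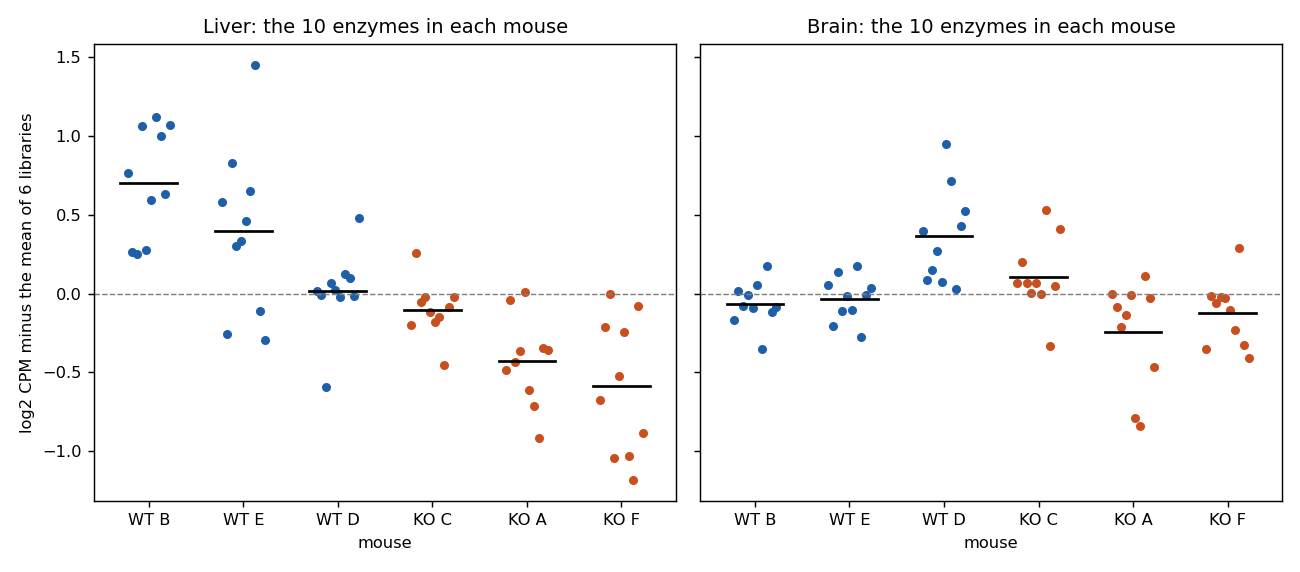
Deviation of each of the 10 genes (dots) from its mean over the 6 libraries of a tissue, in log2 CPM, by mouse, with the mean over the genes as a black line, WT in blue and KO in orange. In liver the means run from 0.70 in WT B to -0.59 in KO F, and in brain from 0.36 in WT D to -0.25 in KO A.

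Other quantities also moved with genotype in liver. Mitochondrial rRNA took 10.7% to 16.9% of counts in WT liver and 7.36% to 8.66% in KO liver, and with it left out of the library sizes the median of the members was again -0.80. The 7 adipocyte markers summed to between 7.47 and 15.05 CPM in WT liver and between 2.69 and 3.65 in KO liver. Only Cidec and Fabp4 passed the filter, both lower in KO, while Adipoq, Plin1 and Lep were at 0 counts in all livers except that of WT E, with 28, 17 and 1 counts. The part of adipocyte RNA in the result was not tested. The fit without WT E cannot test it, because the marker sums of WT B (7.47 CPM) and WT D (15.05 CPM) also exceeded those of every KO liver. In that fit the median of the members was -0.77, and 7 were lower at an unadjusted p under 0.05, against 4.47% of all genes. Those 7 included Elovl5 and not Acaca, unlike the 7 with all livers.

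Between the 2 KO and 2 WT livers with Y-linked counts, the median difference of the members in mean log2 CPM was -0.71. The livers without such counts were 1 KO and 1 WT library, which differed by a median of -0.84 with no replicate. With the Y-linked level as a covariate the median was -0.76.

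Ratios of related enzymes within a library remove what the pair share. The ratio of Elovl6 to Elovl5, per exon length, was 0.156, 0.131 and 0.358 in the WT livers of mice B, D and E and 0.0809, 0.0934 and 0.0559 in the KO livers of mice A, C and F. All KO ratios were lower, by 1.37 on average on the log2 scale (difference -1.37, SE 0.50). The ratio of Fasn to Slc25a1 was 2.98, 1.80 and 3.08 in WT mice B, D and E and 1.03, 1.24 and 0.934 in KO mice A, C and F, again without overlap (log2 difference -1.26, SE 0.28). Each gave p = 0.1 in a two-sided exact permutation test, the smallest that 3 against 3 libraries allow, and 0.4 after Benjamini-Hochberg adjustment over the 8 ratio comparisons. Both ratios set a member without overlap in liver, Elovl6 or Fasn, over one with overlap, Elovl5 or Slc25a1. They are thus not independent of the single-gene values.

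The carboxylase forms and the desaturases gave ratios that overlapped between genotypes. The log2 ratio of Acacb to Acaca differed by -0.27 (SE 0.28, exact permutation p = 0.4) in liver and by -0.67 (SE 0.41, exact permutation p = 0.3) in brain. That of Scd1 to Scd2, the form that predominates in brain, differed by -0.31 (SE 0.58, exact permutation p = 0.8) in liver and by -0.013 (SE 0.091, exact permutation p = 0.9) in brain. In brain the Elovl6 to Elovl5 ratio differed by 0.25 (SE 0.36, exact permutation p = 0.6) and the Fasn to Slc25a1 ratio by -0.43 (SE 0.43, exact permutation p = 0.4).

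In brain, no member passed the test between genotypes. edgeR called none of the 10 at an adjusted p under 0.1, as against 0.064% of the 17188 genes tested, and DESeq2 called none of them among 267 of 17567 genes. No member had an unadjusted p under 0.05, against 11% of all genes. Of the 10 members, 7 had a lower log2 fold change, against 50.2% of all genes, and for none were all KO brains below all WT brains, a pattern found in 7.94% of genes. The median of the members was -0.17 and that of all genes -0.0016. The median was -0.022 without WT D and -0.072 without KO A. Fasn and Scd1 were lower at an unadjusted p under 0.05 without KO C, against 10.4% of all genes. Acacb was so without WT E (4.45% of all genes), without the filter on low counts (5.47%) and with all 12 libraries in the fit (5.08%).

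The largest difference in brain was that of Acacb, at 5.80, 11.2 and 5.12 CPM in WT mice B, D and E and 3.01, 5.54 and 5.14 CPM in KO mice A, C and F. WT D was high and KO A low, and the other 4 libraries lay together. The log2 fold change was -0.69 (SE 0.35, adjusted p = 0.489), on a mean of 138 counts per WT library and 64 per KO library. Without WT D the log2 fold change was -0.25.

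Elovl6 stood at 44.1, 39.8 and 32.2 CPM in the WT brains of mice B, D and E and at 42.2, 30.8 and 47.7 CPM in the KO brains of mice A, C and F. Its log2 fold change was 0.058 (SE 0.19, 95% interval from -0.37 to 0.48), in contrast with -1.78 in liver. Fasn stood at 91.1, 192 and 132 CPM in WT mice B, D and E and at 64.9, 169 and 99.2 CPM in KO mice A, C and F, with a log2 fold change of -0.32 (SE 0.37, 95% interval from -1.16 to 0.53). The Fasn value was -0.011 without WT D, -0.048 without KO A, -0.54 without WT B and -0.75 without KO C. For Fasn, 2 mice, WT D and KO C, were high and the spread within each genotype exceeded the difference.

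Acly and Scd1 followed the same order of mice in brain as far as WT D was the highest. Acly ran from 88.0 to 129.95 CPM in WT and from 77.2 to 104 CPM in KO (log2 fold change -0.20, SE 0.18), and Scd1 from 145 to 222 CPM in WT and from 111 to 205 CPM in KO (-0.28, SE 0.26). For Scd1 it was -0.077 without WT D, -0.13 without KO A, -0.15 without KO F and -0.63 without KO C, and for Acly -0.040 without WT D, -0.080 without KO F and -0.32 without WT B. The other members were Elovl5 (-0.21, SE 0.18), Acss2 (-0.14, SE 0.14), Me1 (-0.11, SE 0.15), Acaca (0.021, SE 0.12) and Slc25a1 (0.071, SE 0.17). Elovl5 moved to -0.034 without WT D and -0.11 without KO F, and Acss2 to -0.074 without KO A and -0.22 without KO C. Acaca was the steadiest of the 10, with all 6 brains between 70.9 and 79.4 CPM.

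Brain libraries differed by genotype in regional markers. The 8 olfactory bulb markers summed to between 7.28 and 17.2 CPM in WT and between 45.4 and 68.0 in KO, the 7 cerebellum markers to between 932 and 1399 in WT and between 206 and 591 in KO, and the 6 choroid plexus markers to between 30.0 and 49.1 in WT and between 17.2 and 23.2 in KO. None of these lists had a marker at 0 in both groups. The 8 oligodendrocyte markers, of the cells that make myelin, overlapped, with sums between 2655 and 3261 CPM in WT and between 2501 and 3036 in KO. Mitochondrial rRNA took 7.63% to 17.7% of counts in WT brain and 21.4% to 31.6% in KO brain. The part of regional makeup in the brain values of the members was not tested.

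The genotype effect in liver minus that in brain tests whether the tissues differ. edgeR called none of the 10 members, nor any other gene (0% called, 2004 at an unadjusted p under 0.05). At an unadjusted p under 0.05, 3 members had a lower effect in liver, Elovl6, Acly and Me1, against 5.07% of the 18944 genes tested. DESeq2 called 367 of 18235 genes, among them 1 member, Elovl6. With mouse as a replicate block, which pairs the tissues by animal, 2 members remained at an unadjusted p under 0.05, Elovl6 and Me1, against 4.34% of all genes, and the interval of Acly ran from -1.43 to 0.061. Only Elovl6 was under that unadjusted threshold in every alternative fit. Me1 was not without the filter on low counts, or without KO A, WT B, WT E or KO F. The median difference was -0.50 for the members and 0.043 for all genes, and that of the members was -0.24 without WT B and -0.71 without WT D.

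For Elovl6 the difference between tissues was -1.81 on the log2 scale (SE 0.42, adjusted p = 0.155, 95% interval from -2.71 to -0.91), and DESeq2 gave an adjusted p of 0.00850. Without WT D, edgeR's adjusted p was 0.0451. With the block the difference was -1.73 (SE 0.45, adjusted p = 0.266). Over all alternatives the adjusted p for Elovl6 ran from 0.00850 to 0.477, and the estimate from -2.18 to -1.36.

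The differences for Acly (-0.70, SE 0.31, adjusted p = 0.456) and Me1 (-0.82, SE 0.38, adjusted p = 0.472) were smaller. For Fasn the difference was -0.93 (SE 0.53), with a 95% interval from -2.07 to 0.22, so the liver difference of Fasn was not shown to be larger than that in brain. Without WT B the difference was -0.39 for Acly, -0.41 for Me1 and -0.40 for Fasn, and without WT D it was -1.06 for Acly and -1.46 for Fasn. For Acacb it was 0.019 (SE 0.39), with an interval from -0.83 to 0.87.

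The pathway was expressed far above its brain level in WT liver. All 10 members were called higher in WT liver than in WT brain by edgeR at an adjusted p under 0.1, against 35.4% of the 17694 genes tested. For all 10 the 3 livers also lay above the 3 brains, a separation that was not counted over all genes. The log2 difference ran from 2.10 (Acaca, SE 0.16) to 7.05 (Scd1, SE 0.48), with a median of 4.13 against -0.16 for all genes. The largest differences after Scd1 were those of Acacb (5.98, SE 0.35, adjusted p = 8.36e-08), Elovl5 (4.48, SE 0.28) and Fasn (4.44, SE 0.37, adjusted p = 1.41e-06). The smallest after Acaca were Elovl6 (2.92, SE 0.32) and Acly (3.36, SE 0.26).

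Levels between genes are compared per exon length, as RPKM (CPM divided by the exon length in kilobases). In WT liver, Scd1 was first at 2958 ± 1326 RPKM (SD, n = 3), followed by Fasn at 171 ± 57.8, Elovl5 at 140.3 ± 41.5 and Acly at 130.1 ± 32.7, which overlapped one another. Me1 at 66.8 ± 25.6 and Slc25a1 at 65.5 ± 11.8 came next. Acss2 (35.3 ± 16.2), Acacb (30.3 ± 6.45) and Elovl6 (28.5 ± 12.3) formed a lower group with overlapping libraries, and Acaca was last at 11.7 ± 1.32. The exon length of Acaca is 17074 bases, all annotated exons included, which lowers its RPKM where not all are used.

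In KO liver the order differed in several places. Slc25a1 came before Me1 (34.3 ± 11.5) without overlap, whereas they overlapped in WT liver. Elovl6 stood at 8.29 ± 2.20 RPKM, last and overlapping with Acaca (8.82 ± 1.63), while in WT liver all Elovl6 libraries were above those of Acaca. Elovl5 (108 ± 11.03) came before Fasn (70.9 ± 22.5), Acly (68.4 ± 11.6) and Slc25a1 (65.4 ± 11.1), each overlapping with the next. In WT brain, Scd1 was first at 35.8 ± 8.47 RPKM, and Acly (20.3 ± 4.03), Fasn (12.6 ± 4.64), Elovl5 (10.1 ± 2.13) and Me1 (8.23 ± 1.19) followed with overlapping neighbours. Acacb was last at 0.765 ± 0.345, below Acss2 (3.02 ± 0.265) without overlap. The order of the 10 genes was the same in KO brain.

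**Figure D4:**
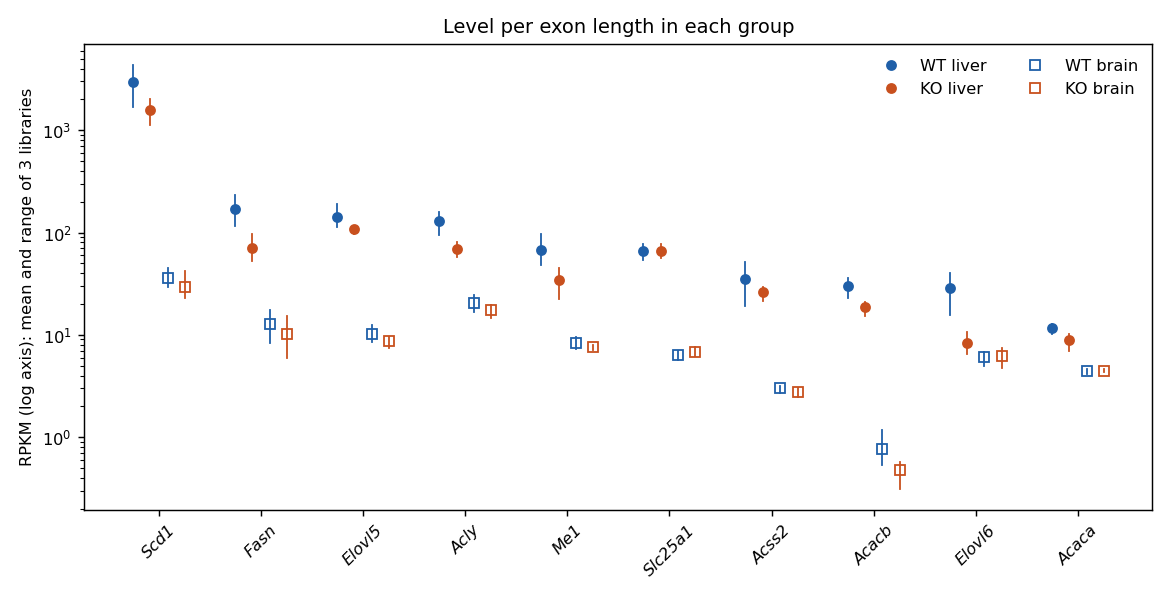
Level per exon length (RPKM, log axis) of the 10 genes in WT liver, KO liver, WT brain and KO brain, as the mean (symbol) and range (line) of 3 libraries, ordered by WT liver. Scd1 is first in all 4 groups, and the liver mean of Elovl6 is 28.5 in WT and 8.29 in KO mice. Scaling was separate in each tissue.

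Of the 14074 other genes tested in liver, those closest to Fasn in their profile over the 6 livers, by the root mean square (RMS) difference of log2 CPM centred on each gene's mean, were Gm11914 (0.185), Gm19619 (0.202), Gpam (0.209), Me1 (0.211) and mt-Rnr2 (0.230). Acly ranked 6th (0.231). Elovl6 ranked 50th, Acacb 76th and Scd1 144th, whereas Acss2 (1623rd) and Slc25a1 (3138th) were far down. The measure is a description of 6 libraries.

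Lists of related genes are read against the share of all genes tested with an unadjusted p under 0.05 in either direction, 7.33% in liver and 11% in brain. Around the 10 enzymes, the elongation and desaturation partners differed little in liver. Of 12 tested genes, 8 were lower and 1, Scd2, had an unadjusted p under 0.05 (log2 fold change -0.52, SE 0.23, adjusted p = 0.672), near the share of all genes, with a list median of -0.088. In brain, 10 of 14 were lower with a median of -0.086, and Fads3, a fatty acid desaturase family member, had an unadjusted p under 0.05 (-0.43, SE 0.18). None was called in either tissue.

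Among acyl-CoA synthetases and suppliers of NADPH and citrate, 10 of 13 tested genes were lower in liver, with a median of -0.24. G6pdx, the glucose-6-phosphate dehydrogenase at the entry of the pentose phosphate pathway, stood at 11.7, 7.11 and 8.35 CPM in WT mice B, D and E and at 3.67, 4.03 and 4.59 CPM in KO mice A, C and F. The groups did not overlap (log2 fold change -1.14, SE 0.24, edgeR adjusted p = 0.383, DESeq2 adjusted p = 0.0168). Acsl3 (-0.58, SE 0.17) and Pgd (-0.45, SE 0.14), the next dehydrogenase of that pathway, had unadjusted p under 0.05 as well. In brain, 8 of 14 were lower with a median of -0.056, and G6pdx had a log2 fold change of -0.63 (SE 0.19, adjusted p = 0.355).

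The separate mitochondrial fatty acid synthesis pathway, which supplies lipoate, served as a comparison. Of its 6 genes, 5 were matched and tested. In liver 2 were lower and 3 higher, with a median of 0.018, and none had an unadjusted p under 0.05. In brain 3 were lower and 2 higher, with a median of -0.043.

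The lipogenic regulators were divided in liver, with 10 of 20 lower, 10 higher and a median of -0.027. Thrsp, also called Spot14, a lipogenic protein induced by thyroid hormone and carbohydrate, stood at 401, 349 and 466 CPM in WT mice B, D and E and at 54.4, 131 and 80.1 CPM in KO mice A, C and F. The groups were far apart (log2 fold change -2.20, SE 0.31, edgeR adjusted p = 0.336, DESeq2 adjusted p = 1.06e-11). Srebf1, the gene of SREBP1c, stood at 390, 245 and 307 CPM in WT mice B, D and E and at 238, 246 and 205 CPM in KO mice A, C and F. Only KO C overlapped with WT D, and the log2 fold change was -0.45 (SE 0.18, adjusted p = 0.656). In brain, 16 of 19 tested regulators were lower with a median of -0.12, and 2 had an unadjusted p under 0.05, Thrsp (-0.56, SE 0.15, edgeR adjusted p = 0.340) and Mbtps1 (-0.30, SE 0.13), a protease that activates SREBPs, a count near the 11% of all brain genes.

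Of the glycerolipid synthesis genes, which use the fatty acids made, 10 of 12 were lower in liver with a median of -0.24. Pnpla3, an SREBP1c-responsive acylhydrolase of lipid droplets, stood at 2.73, 4.29 and 8.12 CPM in WT mice B, D and E and at 0.843, 0.112 and 0.678 CPM in KO mice A, C and F, with a log2 fold change of -3.20 (standard error 0.63, edgeR adjusted p = 0.383, DESeq2 adjusted p = 6.80e-05) on 2 to 14 counts per KO library. Gpam, the mitochondrial glycerol-3-phosphate acyltransferase, stood at 768, 496 and 529 CPM in WT mice B, D and E and at 303, 401 and 226 CPM in KO mice A, C and F. It did not overlap either (log2 fold change -0.95, SE 0.24, edgeR adjusted p = 0.428, DESeq2 adjusted p = 0.0180). In brain, 8 of 12 were lower with a median of -0.19, and 1, Gpat4, had an unadjusted p under 0.05 (-0.34, SE 0.13), no more than the share of all brain genes.

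Of the 12 fasting response genes tested in liver, 8 were higher with a median of 0.12, and 2 had an unadjusted p under 0.05. Igfbp1, an insulin-repressed binding protein of insulin-like growth factors, stood at 78.3, 61.0 and 56.5 CPM in WT mice B, D and E and at 321, 90.0 and 180 CPM in KO mice A, C and F (log2 fold change 1.59, SE 0.46, edgeR adjusted p = 0.497, DESeq2 adjusted p = 0.00145). Irs2, an adaptor of the insulin receptor that is raised in fasted liver, stood at 68.0, 39.8 and 52.6 CPM in WT mice B, D and E and at 235, 75.4 and 116 CPM in KO mice A, C and F (1.41, SE 0.45, edgeR adjusted p = 0.554, DESeq2 adjusted p = 0.320). KO C was the KO liver closest to the WT mean for both, as for Acly, Acacb, Fasn, Elovl6, Scd1 and Me1. For Acaca and Slc25a1 it was KO A, and for Acss2 and Elovl5 KO F. In brain, 5 of 7 tested genes of this list were lower with a median of -0.27, and none had an unadjusted p under 0.05. The labels give neither feeding state nor hour of collection.

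**Figure D5:**
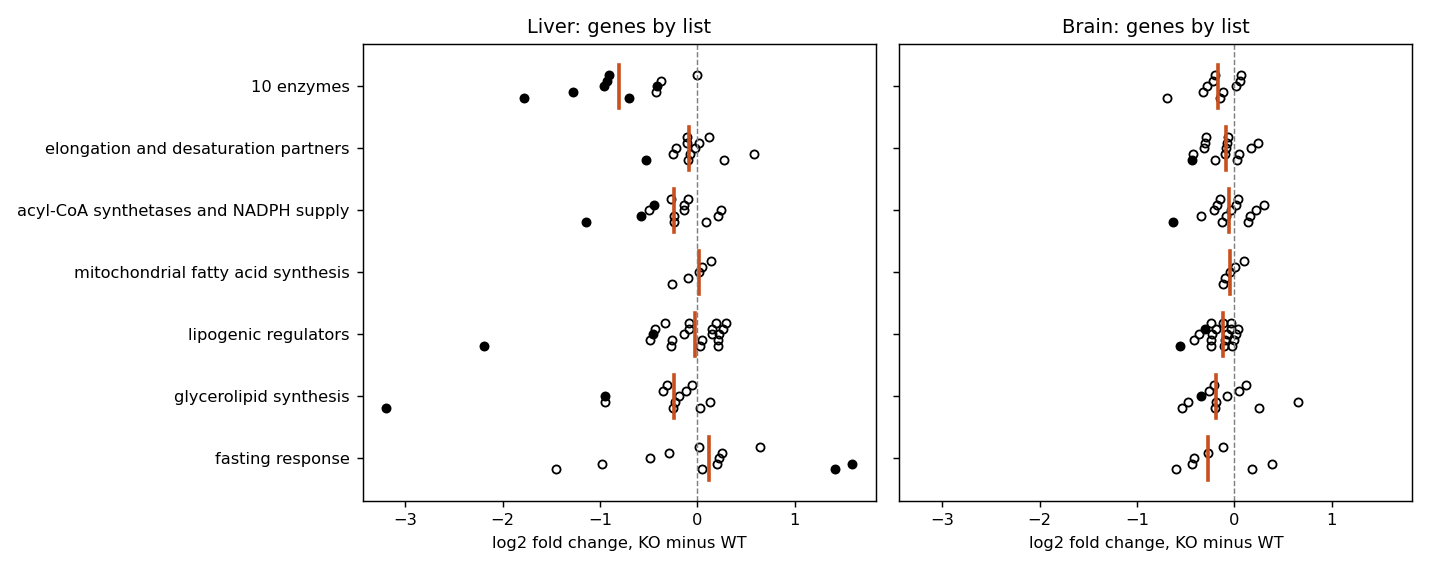
Log2 fold change (KO minus WT, edgeR) of each tested gene in liver (left) and brain (right) by list, with filled dots for an unadjusted p under 0.05, open dots for the rest and an orange line at the median. The median of the 10 enzymes is -0.80 in liver and -0.17 in brain, and that of the mitochondrial fatty acid synthesis genes 0.018 and -0.043.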

How the data were processed

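Total RNA from the liver and brain of 6 mice was made into stranded libraries by the authors and sequenced as single-end reads. Per the submitters' processing notes, the reads were checked with FastQC 0.11.5, trimmed with Trimmomatic, aligned to mm10 with STAR 2.7.3a and counted over exons by featureCounts, by strand. The authors deposited raw counts per gene, with no normalization. Identifiers were matched to symbols for 55141 of 55487 genes.

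Counts were fitted with edgeR 4.0.16 in R 4.3.3 (TMM, filterByExpr, robust quasi-likelihood F test), separately in liver and brain, with all 12 libraries for the difference between tissues and with the 6 WT libraries for liver against brain. P-values were adjusted by Benjamini-Hochberg over all genes tested and called under 0.1. The study's own test, DESeq2 (1.42.0 here), was an alternative, and the others are in the closing section. SE is the log2 fold change over the square root of F, and 95% intervals use the fit's t quantile. Profile likeness used log2(CPM + 0.5). The scripts were tested on simulated data.

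The 10 members and all lists were chosen with earlier results of these data known. The text names the members, Mettl5, up to 4 genes per list and tissue with the smallest p, and the 5 genes most like Fasn. Liver and brain of a mouse come from the same animal, which pairs the tissues, and the correlation of their deviations from the group means over 12574 genes ran from -0.057 (mouse B) to 0.126 (mouse E). Replicates are separate mice, 3 per group, so p-values measure the spread between mice.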

Additional observations from a re-analysis of the deposited data

How the results depend on the processing

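Liver calls depended on the fit: 0 members with edgeR, 5 with DESeq2, 5 without the filter on low counts, and 0 to 2 when 1 mouse was left out, with 2 only without WT replicate D. For the other settings (RLE size factors, mitochondrial rRNA left out, Y-linked covariate, all 12 libraries) it was 0. The cause was not tested. The liver median stayed between -0.55 and -0.92 under all of these. In brain 0 members were called under every alternative, and the median ran from -0.022 without WT D to -0.26 without WT B. Members whose effect differed between tissues numbered 1 with DESeq2, and 0 to 1 when 1 mouse was left out, with 1 only without WT D. With the replicate block of mouse the number was 0, 68 over all genes, and the Elovl6 difference -1.73. The block changed no member's call. Over all genes, liver calls were 0 in the report's fit, 171 with DESeq2, 443 without the filter, 110 with the Y-linked covariate, 3 with all 12 libraries, 87 without WT D and 2 without KO C. Brain calls were 11, 267 with DESeq2, 1000 without the filter and 2 to 23 with 1 mouse left out. Those between tissues were 0, 367 with DESeq2, 183 without the filter, 1 with RLE, 1 without KO F and 86 without WT D. Between WT liver and WT brain 10 members were called throughout, all higher in liver. Genes called higher in liver numbered 6268 of 17694 in the report's fit and 6559 of 24212 with DESeq2. They numbered 7153 of 32005 without the filter and 5588 of 17987 without WT B. The all-gene median ran from -0.16 to -0.43. The order of levels was the same for 10 of 10 genes in TPM.

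Members near 0 changed sign. Slc25a1 in liver was 0.0041 with DESeq2, 0.00052 with RLE, 0.014 without the filter, 0.019 with the Y-linked covariate, 0.026 with all 12 libraries, and -0.14 to 0.14 with 1 mouse left out. Without the filter, Acaca in brain was -0.0028 and Slc25a1 between tissues 0.00059. With 1 mouse left out, brain values ran from -0.014 to 0.059 for Acaca, -0.084 to 0.22 for Elovl6, -0.18 to 0.0084 for Me1 and -0.023 to 0.13 for Slc25a1. Differences between tissues ran from -0.59 to 0.31 for Acacb, -0.42 to 0.27 for Elovl5, -0.59 to 0.094 for Acss2 and -0.13 to 0.097 for Slc25a1, and Acacb was -0.0027 with the block. Of the alternative values for single genes, 430 kept direction and side of the threshold, 24 changed sign and 19 passed the threshold that the fit in the report did not. With 3 mice per group, changes smaller than the intervals given could not be told from 0.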
